A study of Arabidopsis thaliana with 8 samples.

Results

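ATHB2 (AT4G16780), HAT1 (AT4G17460), HAT2 (AT5G47370), HAT3 (AT3G60390), ATHB4 (AT2G44910), HAT22 (AT4G37790), HAT9 (AT2G22800) and HAT14 (AT5G06710) are class II homeodomain-leucine zipper (HD-ZIP) transcription factor genes of Arabidopsis thaliana. These 8 genes were taken by gene code from the 33518 genes listed in each count file, and all 8 were listed. All 8 also passed the filter on low counts, which left 21221 genes to test. RNA was sequenced from whole seedlings kept in darkness for 5 days on medium with BRZ, an inhibitor of brassinosteroid synthesis, with 2 libraries for each of 4 genotypes. The combined line pifq;bzr1-1D carries the mutations of both single lines. In pifq 4 genes for phytochrome-interacting factors (PIFs) are mutated, namely PIF1, PIF3, PIF4 and PIF5. In bzr1-1D a dominant mutation makes BZR1, a transcription factor of the brassinosteroid response, more stable, and Col-0 is the wild type. All 4 share the Col-0 ecotype, the inhibitor and the darkness, so no genotype here shows the genes in light, in shade or with normal brassinosteroid synthesis. Whether the paired libraries stem from separately grown seedlings is not in the labels, and the p-values below measure only how far these libraries differ, which may be technical.

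HD-ZIP proteins bind DNA as dimers through a homeodomain joined to a leucine zipper. Those of class II act mainly as transcriptional repressors and can recruit TOPLESS-type co-repressors. They are best known from shade avoidance: when neighbouring plants filter out red light, phytochrome is inactivated, PIF proteins accumulate, and ATHB2 is among the first genes to be induced. Darkness also leaves phytochrome inactive and PIFs abundant. HAT1 is additionally known as a substrate of the brassinosteroid kinase BIN2 and a partner of BES1, the closest relative of BZR1, and HAT3, ATHB4 and ATHB2 take part in leaf polarity and the shoot apex.

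The libraries held 16.1 to 34.4 M gene counts (M, mega). Levels are given as CPM, counts per M of gene counts after TMM scaling, so that they match the fold changes. PORA, a protochlorophyllide reductase gene of etiolated tissue, was abundant in all 8 libraries, at 1044 and 1070 CPM in pifq;bzr1-1D, 1771 and 1740 in pifq, 2929 and 2887 in bzr1-1D, and 3190 and 3198 in Col-0. PIF1 transcripts had 22.1 and 19.3 CPM in the combined line and 21.5 and 22.4 in pifq, against 43.6 and 43.4 in bzr1-1D and 45.9 and 45.6 in Col-0. PIF3 and PIF5 were likewise lower in pifq than in Col-0 (log2 fold changes −0.85 and −1.60), while PIF4 transcripts were higher (0.85). Mutant transcripts can still be counted, and bzr1-1D alters a protein rather than a transcript, so these levels are no check of the genotypes. Log2 fold changes were tested with the quasi-likelihood test of edgeR over all 21221 genes, and a gene is called changed at a Benjamini-Hochberg adjusted p under 0.05. Levels are given for both libraries of a genotype (n = 2), and log2 fold changes with their standard error (SE).

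**Figure D1:**
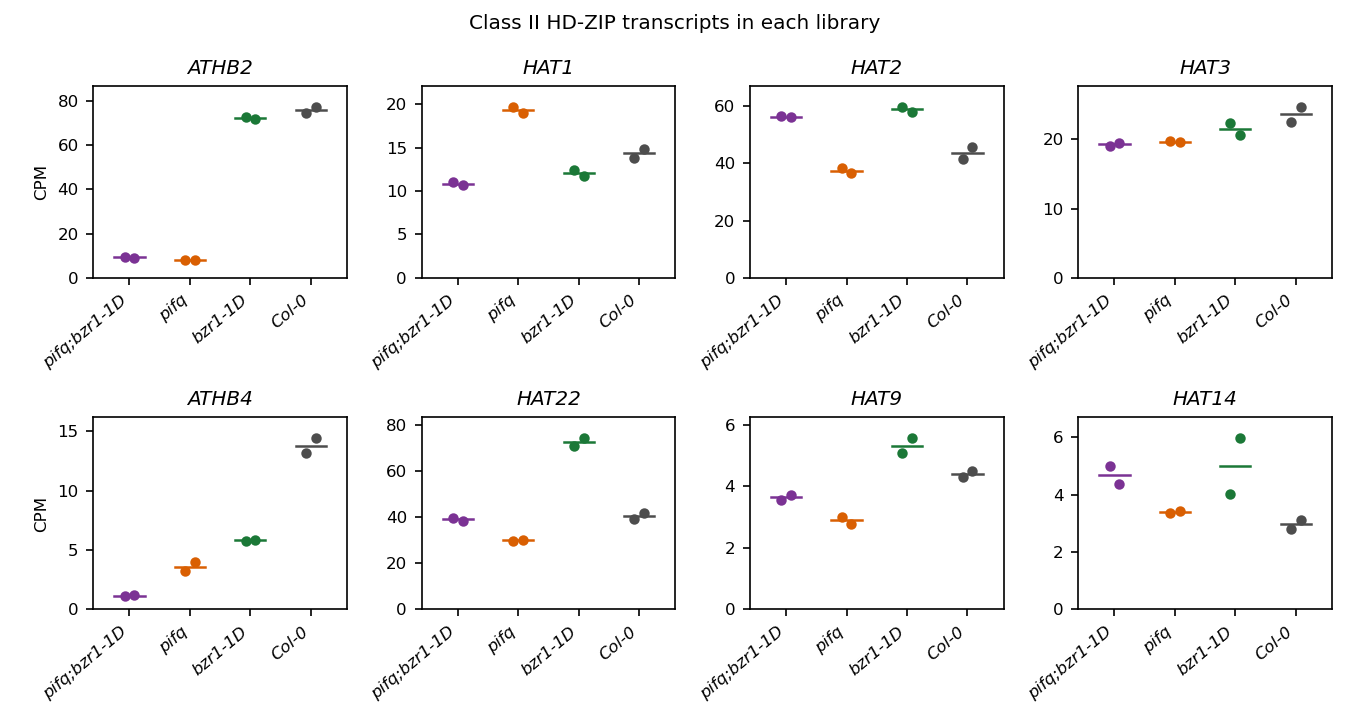
CPM of each of the 8 genes in each library (points) with the mean of 2 libraries (line), by genotype; every axis starts at 0. ATHB2 lies between 8.22 and 9.49 CPM in the 4 libraries without the PIFs and between 71.6 and 77.3 in the other 4, ATHB4 differs in all 4 genotypes, and the 2 bzr1-1D libraries of HAT14 lie far apart.

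ATHB2, the shade marker of the family, was low in both genotypes without the PIFs and high in both genotypes with them. Its level was 9.49 and 9.02 CPM in the combined line, 8.29 and 8.22 in pifq, 72.5 and 71.6 in bzr1-1D, and 74.4 and 77.3 in Col-0. The libraries without the PIFs were all low and those with them all high, and the low and high sets did not overlap. ATHB2 was 9.16-fold lower in pifq than in Col-0 (log2 fold change −3.20 ± 0.06 SE, n = 2 per genotype, edgeR adjusted p = 9.45e-30) and 7.73-fold lower in the combined line than in bzr1-1D (−2.95 ± 0.06, edgeR adjusted p = 1.49e-28). Only 127 of the 21221 genes tested had a lower log2 fold change in pifq against Col-0. The bzr1-1D allele gave 0.17 ± 0.10 without the PIFs (edgeR adjusted p = 0.128) and −0.07 ± 0.04 with them (edgeR adjusted p = 0.164), and neither passed. The second of these passed when either pifq;bzr1-1D library was left out (adjusted p = 0.0498 and 0.0485) and after thinning to equal depth (0.0213), at log2 fold changes of −0.10 to −0.13.

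ATHB4, which acts with HAT3 in leaf polarity, was lowered by each mutation, and lowest where both were present. It had 1.11 and 1.18 CPM in the combined line, from 31 and 18 counts, 3.19 and 3.97 in pifq, 5.76 and 5.85 in bzr1-1D, and 13.1 and 14.4 in Col-0. No 2 genotypes overlapped. The fall was 3.13-fold for pifq;bzr1-1D against pifq (log2 fold change −1.65 ± 0.21 SE, edgeR adjusted p = 4.31e-08) and 2.35-fold for bzr1-1D against Col-0 (−1.23 ± 0.10, edgeR adjusted p = 3.38e-12). Loss of the PIFs lowered ATHB4 5.09-fold in the bzr1-1D background (−2.35 ± 0.19) and 3.82-fold in the Col-0 background (−1.93 ± 0.12). The combined line stood 11.97-fold below Col-0 (−3.58 ± 0.16, edgeR adjusted p = 9.65e-20), and 152 genes of the 21221 had a lower value there. On the log2 scale the difference between the effects of bzr1-1D without and with the PIFs was −0.41 ± 0.25, and it did not pass (edgeR adjusted p = 0.171).

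HAT1, the BIN2 substrate, was the only 1 of the 8 called higher in pifq than in Col-0. It had 11.1 and 10.7 CPM in the combined line, 19.7 and 19.0 in pifq, 12.4 and 11.8 in bzr1-1D, and 13.8 and 14.9 in Col-0. Both pifq libraries were above the other 6, both Col-0 libraries came next, and the combined line was lowest. HAT1 rose in pifq against Col-0 (log2 fold change 0.45 ± 0.07 SE, edgeR adjusted p = 3.3e-06). With bzr1-1D, loss of the PIFs gave −0.15 ± 0.09 (edgeR adjusted p = 0.158). The allele lowered HAT1 to 56.4% of the pifq level in the combined line (−0.83 ± 0.08, edgeR adjusted p = 2.4e-10), whereas with the PIFs the fall was −0.24 ± 0.08 (edgeR adjusted p = 0.0133). This smaller fall no longer passed with DESeq2 (adjusted p = 0.0849), without Col-0 replicate 2 (0.0837) or without bzr1-1D replicate 2 (0.0941). The difference between both effects, tested as the interaction, was −0.59 ± 0.12 (edgeR adjusted p = 7.73e-05).

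HAT2, known as an auxin-inducible member, was raised by bzr1-1D both with and without the PIFs. It had 56.4 and 56.1 CPM in the combined line and 38.3 and 36.6 in pifq, a log2 fold change of 0.59 ± 0.05 SE (edgeR adjusted p = 2.97e-11). In bzr1-1D it had 59.8 and 57.9 CPM, against 41.5 and 45.8 in Col-0, or 0.44 ± 0.05 (edgeR adjusted p = 2.92e-09). The 4 libraries with the allele were all above the 4 without it. Loss of the PIFs gave −0.21 ± 0.05 without the allele (edgeR adjusted p = 0.00097) and −0.07 ± 0.05 with it (edgeR adjusted p = 0.254). The interaction was 0.14 ± 0.07 and did not pass (edgeR adjusted p = 0.102), but it did without Col-0 replicate 1 (0.23, adjusted p = 0.0219).

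HAT3, the close relative of ATHB4, varied least over the genotypes of the shade-named members. It had 19.1 and 19.5 CPM in the combined line, 19.8 and 19.5 in pifq, 22.3 and 20.6 in bzr1-1D, and 22.5 and 24.7 in Col-0. The 4 libraries without the PIFs lay close together, all of them under the 4 with the PIFs. HAT3 fell by 0.25 ± 0.07 SE on the log2 scale in pifq against Col-0 (edgeR adjusted p = 0.00182). In the combined line against bzr1-1D its log2 fold change was −0.16 ± 0.07, just short of the threshold (edgeR adjusted p = 0.0546). It passed with RLE size factors (0.0344), with only these 2 genotypes in the fit (0.0397) and without bzr1-1D replicate 2 (0.0333). The allele gave −0.03 ± 0.07 without the PIFs and −0.12 ± 0.07 with them. The second value, with an edgeR adjusted p of 0.115, passed without Col-0 replicate 1 (adjusted p = 0.0451), without pifq;bzr1-1D replicate 1 (0.0488) or replicate 2 (0.0484), and after thinning (0.0130).

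HAT22 and HAT9 are a closely related pair outside the shade-named set, and HAT22 rose with bzr1-1D in both backgrounds. HAT22 had 39.7 and 38.2 CPM in the combined line, 29.8 and 30.1 in pifq, 70.6 and 74.2 in bzr1-1D, and 39.1 and 41.8 in Col-0. Both bzr1-1D libraries were above all others, both pifq libraries were below, and the combined line overlapped Col-0 (log2 fold change −0.04 ± 0.05 SE, edgeR adjusted p = 0.554). The allele raised HAT22 by 0.39 ± 0.06 without the PIFs (edgeR adjusted p = 7.56e-07) and by 0.85 ± 0.05 with them (edgeR adjusted p = 1.13e-16), and the interaction was −0.46 ± 0.07 (edgeR adjusted p = 4.47e-06). Loss of the PIFs lowered it by 0.89 ± 0.05 in the bzr1-1D background, against 0.43 ± 0.05 in the Col-0 background, which is the same interaction seen from the other side.

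HAT9 was a low-level gene, with 57 to 154 counts per library. It had 3.56 and 3.73 CPM in the combined line, 3.00 and 2.78 in pifq, 5.08 and 5.56 in bzr1-1D, and 4.29 and 4.51 in Col-0. The libraries of the 4 genotypes did not overlap and had the order bzr1-1D, Col-0, combined line, pifq. Neighbours in this order were not called different from each other (edgeR adjusted p = 0.0684, 0.12 and 0.0953). Loss of the PIFs lowered HAT9 with the allele (log2 fold change −0.55 ± 0.15 SE, edgeR adjusted p = 0.00125) and without it (−0.60 ± 0.15, edgeR adjusted p = 0.000817). The allele gave 0.32 ± 0.17 without the PIFs and 0.28 ± 0.13 with them, which did not pass (edgeR adjusted p = 0.0953 and 0.0684).

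HAT14, also at low level with 66 to 148 counts per library, was higher with bzr1-1D and was not called changed by loss of the PIFs. It had 5.00 and 4.38 CPM in the combined line, 3.35 and 3.44 in pifq, 4.01 and 5.97 in bzr1-1D, and 2.82 and 3.10 in Col-0. The libraries with the allele were all above those without it, but the 2 bzr1-1D libraries enclosed the range of the combined line. HAT14 rose in bzr1-1D against Col-0 (log2 fold change 0.76 ± 0.16 SE, edgeR adjusted p = 0.00018), and the rise was 1.03 without bzr1-1D replicate 1 (adjusted p = 1.05e-05) and 0.45 without replicate 2 (0.0462). In the combined line against pifq it rose by 0.49 ± 0.17 (edgeR adjusted p = 0.0152). That call was lost with DESeq2 (0.122) and without pifq replicate 1 (0.0850), pifq replicate 2 (0.0590) or pifq;bzr1-1D replicate 1 (0.236). Against Col-0 the combined line was higher by 0.70 ± 0.17 (edgeR adjusted p = 0.000804), a call lost without pifq;bzr1-1D replicate 1 (0.0523). Loss of the PIFs gave −0.06 ± 0.16 with the allele and 0.21 ± 0.18 without it.

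**Figure D2:**
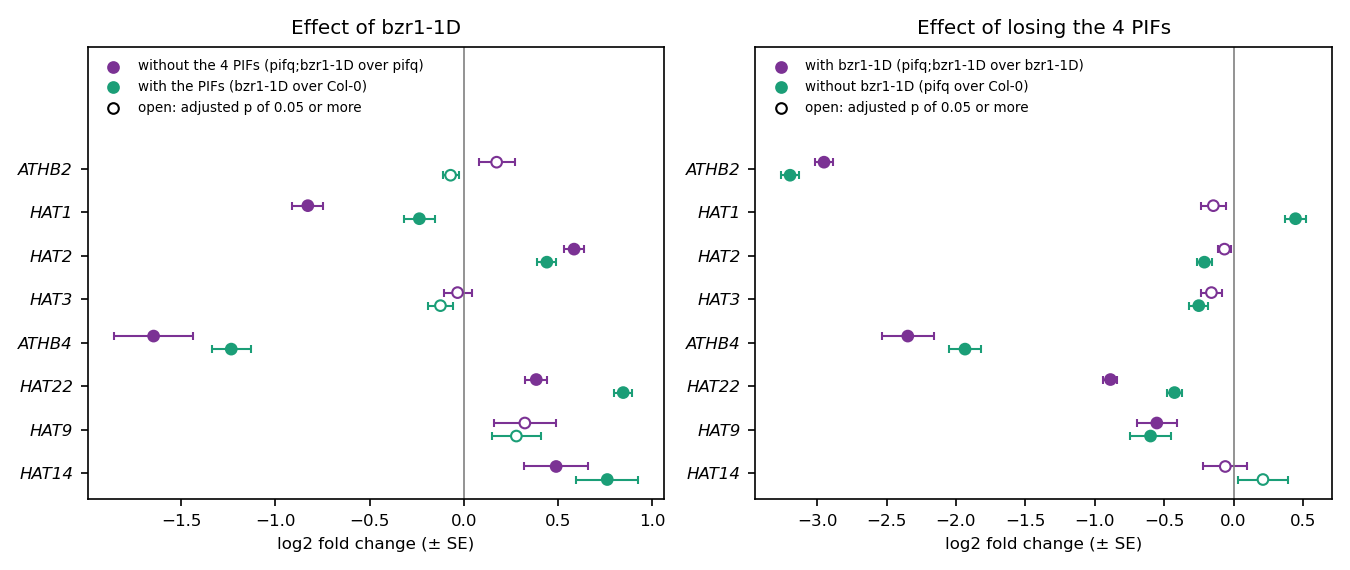
Log2 fold changes (± SE, n = 2 libraries per genotype) of bzr1-1D without and with the PIFs (left) and of the loss of the 4 PIFs with and without bzr1-1D (right); filled points have an edgeR adjusted p under 0.05. The 2 effects of bzr1-1D lie farthest apart relative to their errors for HAT1 (−0.83 and −0.24) and HAT22 (0.39 and 0.85), and ATHB2 and ATHB4 stand at the far left of the right panel.

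Counted over the family, loss of the PIFs lowered 4 of the 8 genes with bzr1-1D and 6 of the 8 without it, and bzr1-1D moved members both ways. In pifq against Col-0, 6 of the 8 fell and HAT1 rose, with a median log2 fold change of −0.34. Of all genes tested, 62.5% were called in that comparison (30.5% fell and 32% rose), so a call by itself was common there. At 2-fold or more, 12.7% of all genes were called, as ATHB2 and ATHB4 were. In the combined line against bzr1-1D, ATHB2, ATHB4, HAT22 and HAT9 fell and no member rose (median −0.36). Of all genes, 65.4% were called there (31.6% fell and 33.8% rose) and 16.8% at 2-fold or more, as ATHB2 and ATHB4 again were. In the combined line against pifq, HAT2, HAT22 and HAT14 rose and HAT1 and ATHB4 fell. The call rate of all genes was 55.9% (28.1% rose and 27.8% fell), and 7.62% were called at 2-fold or more, among the members only ATHB4. In bzr1-1D against Col-0 these 3 members also rose and these 2 also fell. There 56.8% of all genes were called (30.8% rose and 26.1% fell), 11.4% at 2-fold or more, again with ATHB4 as the only member. Against Col-0 the combined line had 4 members lower (ATHB2, HAT1, HAT3 and ATHB4) and 2 higher (HAT2 and HAT14). The log2 fold changes not given above were −3.02 ± 0.06 for ATHB2, −0.38 ± 0.09 for HAT1, 0.38 ± 0.05 for HAT2 and −0.28 ± 0.07 for HAT3, and HAT9, at −0.27 ± 0.15, did not pass (edgeR adjusted p = 0.12). Of all genes 54.3% were called there (25% lower and 29.3% higher), 11.4% at 2-fold or more. The interaction was called negative for HAT1 and HAT22 and positive for no member. It was 0.09 ± 0.10 for HAT3 (edgeR adjusted p = 0.475), 0.05 ± 0.21 for HAT9 (0.885) and −0.27 ± 0.24 for HAT14 (0.364). Of all genes it was called for 48.8% (26.9% negative and 21.9% positive), and for 10.7% at 2-fold or more, which no member reached. These shares of members called are near or below those of all genes in several comparisons and are read as counts only. Without Col-0 replicate 1 it was called for 4, ATHB2 and HAT2 being added. For ATHB2 the interaction was 0.24 ± 0.11 SE with an edgeR adjusted p of 0.0536, which became 0.0471 with RLE size factors and 0.0434 without that library. The comparisons share libraries, so their counts are not independent of each other.

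Levels of different genes were compared as CPM per kb of exon, with exon lengths of 1311 to 2148 bases taken by gene code from the TAIR10.1 annotation. In Col-0, ATHB2 was the most abundant of the 8 at 56.9 CPM per kb, ahead of HAT2 at 30.7 and HAT22 at 28.1. Its share of the summed CPM per kb of all 8 was 6.93% in the combined line, 7.14% in pifq, 30.1% in bzr1-1D and 36.3% in Col-0. Without the PIFs the order changed: HAT2 led (39.5 CPM per kb in the combined line and 26.3 in pifq), followed by HAT22, HAT3 and HAT1, and ATHB2 was number 5 at 6.94 and 6.19. HAT3 and HAT1 overlapped in pifq, as did ATHB4 and HAT9 in bzr1-1D and HAT1 and ATHB4 in Col-0, so these neighbours did not differ beyond their spread. In bzr1-1D, ATHB2 (54.1) and HAT22 (50.3) led, with a library range of 49.0 to 51.5 for HAT22 and 53.7 to 54.4 for ATHB2. HAT9 and HAT14 had the 2 lowest levels in pifq, bzr1-1D and Col-0, and in the combined line ATHB4 was last at 0.822 CPM per kb. Summed over the 8 genes, the level was 145 and 143 CPM in the combined line, 125 and 124 in pifq, 252 and 253 in bzr1-1D, and 211 and 227 in Col-0.

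**Figure D3:**
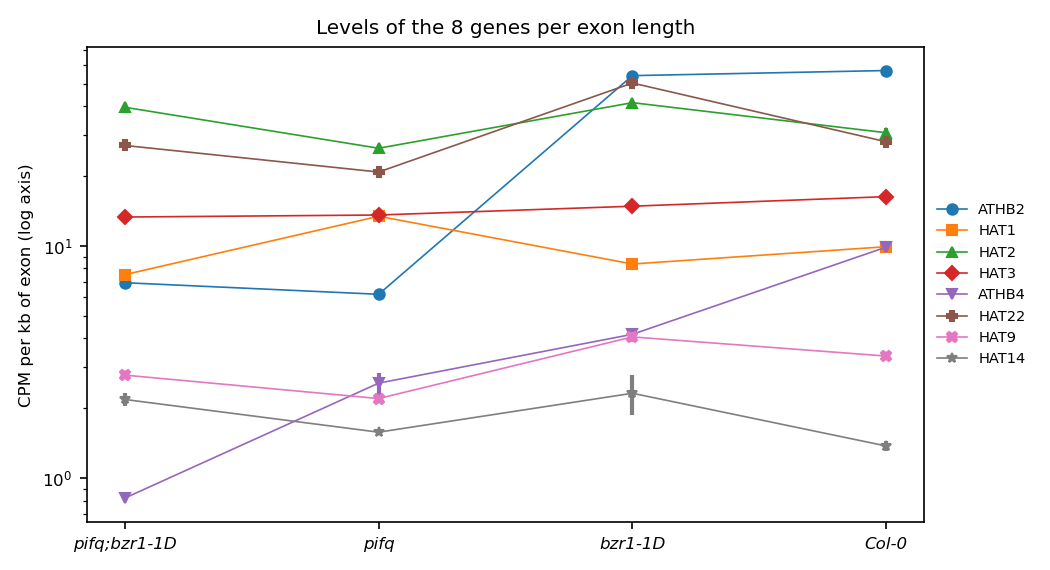
Mean CPM per kb of exon of the 8 genes by genotype on a log axis; lines join the same gene, and thick vertical bars span its 2 libraries. ATHB2 is first of the 8 in Col-0 (56.9) and bzr1-1D (54.1) and number 5 in pifq (6.19) and the combined line (6.94), and ATHB4 is last in the combined line (0.822).

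The other HD-ZIP classes were examined for comparison. Counts called in these lists and those below stand beside the shares of all genes tested. In pifq against Col-0 62.5% were called (30.5% fell and 32% rose). In bzr1-1D against Col-0 56.8% were called (30.8% rose and 26.1% fell). The other 2 class II genes listed, ATHB17 and ATHB18, were near the lower limit of detection with 2 to 17 counts per library. ATHB18 had 0.649 and 0.605 CPM in bzr1-1D, against 0.251 and 0.0939 in Col-0 (log2 fold change 1.68 ± 0.47 SE, edgeR adjusted p = 0.00289), the only call for this pair in any comparison. Class I genes, many of which answer to light, drought or abscisic acid, had 13 of 17 members tested, and in pifq against Col-0 10 fell and 2 rose, with a median of −0.58. The 4 with the smallest p were ATHB52 (−2.66 ± 0.06), ATHB3 (−1.47 ± 0.09), ATHB20 (−1.26 ± 0.10) and ATHB5 (0.46 ± 0.04). In bzr1-1D against Col-0, 7 class I genes rose and 1 fell (median 0.33), with ATHB12 at 0.92 ± 0.06, ATHB3 at 0.98 ± 0.06, ATHB23 at 1.36 ± 0.12 and ATHB52 at −0.60 ± 0.05. ATHB52 shared with ATHB2 a low level in both genotypes without the PIFs, with 11.4 and 11.0 CPM in the combined line and 12.0 and 11.3 in pifq, against 50.01 and 47.49 in bzr1-1D and 71.7 and 76.3 in Col-0. ATHB1 is listed at 0 counts in all 8 libraries, which allows up to 0.0836 to 0.196 CPM of counted reads, depending on the library. In TAIR10.1 it overlaps 3 other annotated genes, and reads assigned to no single gene were not counted. Whether these overlaps also exist in TAIR9, the build named for the counts, or bear on the 0 counts was not tested.

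Class III HD-ZIP genes act in setting the upper side of leaves, and the LITTLE ZIPPER (ZPR) proteins inhibit them. Of these 9 genes, 8 were tested, and in pifq against Col-0 2 rose and 2 fell, with a median of 0.01. PHB (0.30 ± 0.05 SE) and ATHB8 (0.25 ± 0.06) rose, and ZPR1 (−0.51 ± 0.10) and CNA (−0.14 ± 0.05) fell. In bzr1-1D against Col-0 4 rose and 1 fell (median 0.13). ZPR1 rose by 0.79 ± 0.08, with 20.8 and 20.3 CPM in bzr1-1D and 12.0 and 11.8 in Col-0, and PHV fell by 0.35 ± 0.06. Values past 1 in either direction occurred in class I and class II and in none of the 8 tested genes of the class III and ZPR list in these 2 comparisons.

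**Figure D4:**
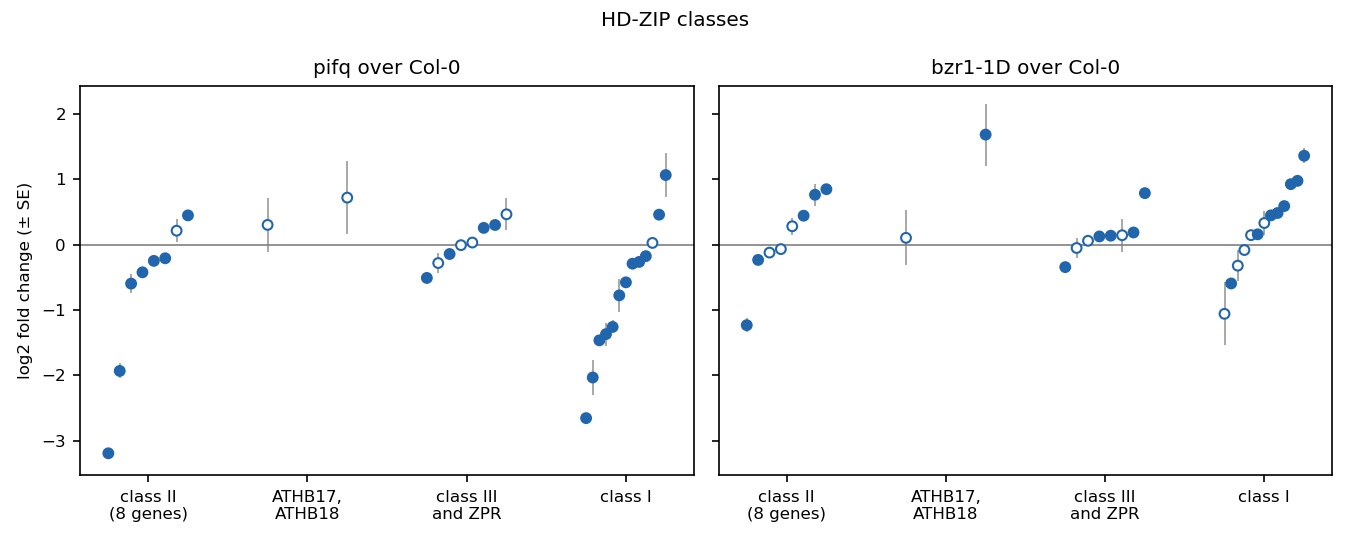
Log2 fold changes (± SE, n = 2 libraries per genotype) of the genes of each HD-ZIP class in pifq over Col-0 (left) and bzr1-1D over Col-0 (right), ordered within a class by value; filled points have an edgeR adjusted p under 0.05. ATHB2 at −3.20 and ATHB52 at −2.66 are the lowest points on the left, and the class III and ZPR genes lie between −0.51 and 0.46 there.

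Genes that act around the class II factors in shade were read from a further list of 12. In pifq against Col-0, 10 of these fell and 2 rose (median −0.90). HFR1 (−5.31 ± 0.08 SE), a bHLH factor that restrains the PIFs, PIL1 (−4.88 ± 0.09), a shade-induced bHLH gene, ST2A (−3.26 ± 0.05), a sulfotransferase gene, and the phytochrome gene PHYA (−0.87 ± 0.04) had the smallest p. ATHB2, at −3.20, was close to ST2A. In bzr1-1D against Col-0, 2 rose and 3 fell (median 0.01). The auxin repressor gene IAA19 rose by 2.67 ± 0.09 and PAR2 by 1.33 ± 0.09, while HFR1 (−0.61 ± 0.05) and PAR1 (−0.34 ± 0.05) fell. Over this list the interaction was called negative for 6 genes and positive for 3 (median −0.36). Of all genes, 26.9% were called negative and 21.9% positive. IAA19 had the lowest interaction of the list, −2.39, and without the PIFs the allele gave it 0.28 ± 0.27 (edgeR adjusted p = 0.379). For HFR1 the interaction was 1.07 ± 0.19 (edgeR adjusted p = 1.55e-05), where the allele gave 0.47 ± 0.18 without the PIFs and −0.61 ± 0.05 with them.

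The TOPLESS co-repressor family, which class II proteins can recruit through an EAR motif, changed by less than 2-fold in each of these comparisons with Col-0. TPL itself had 357 and 376 CPM in the combined line, 343 and 348 in pifq, 263 and 268 in bzr1-1D, and 381 and 372 in Col-0. It fell in bzr1-1D against Col-0 (log2 fold change −0.51 ± 0.04 SE, edgeR adjusted p = 2.98e-14), while TPR3 rose by 0.51 ± 0.07. In the combined line against pifq TPR3 fell instead, by 0.58 ± 0.08 (edgeR adjusted p = 1.34e-07). Of the 5 family members, 3 rose and 1 fell in bzr1-1D, and 1 rose and 2 fell in pifq. The interaction was called positive for 2 of the 5 and negative for 2, the lowest being −1.09 for TPR3. Among the brassinosteroid partners, BES1 had 115 and 116 CPM in the combined line, 88.4 and 89.0 in pifq, 45.1 and 44.4 in bzr1-1D, and 76.4 and 76.7 in Col-0. The BES1 interaction was 1.16 ± 0.06 (edgeR adjusted p = 2.11e-17). DWF4, a synthesis gene that BZR1 represses, fell by 2.97 ± 0.06 in the combined line against pifq and by 1.86 ± 0.05 in bzr1-1D against Col-0. The interaction of DWF4 was −1.11 ± 0.08, the only negative 1 of the 5 partners. Those of CPD, another synthesis gene (0.48 ± 0.05), BIN2 (0.46 ± 0.05) and BZR1 (0.40 ± 0.07) were positive and called, as that of BES1 was. CPD itself fell like DWF4, by 0.47 ± 0.04 in the combined line against pifq and by 0.96 ± 0.03 in bzr1-1D against Col-0. Of all genes the interaction was called for 48.8% (26.9% negative and 21.9% positive).

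Profiles like those of the shade-named members were sought among 14664 genes that averaged at least 5 CPM, as the root mean square difference of log2 CPM centred per gene over the 8 libraries. Nearest to ATHB2 was HEC2, a bHLH factor gene, at 0.10, with 4.61 CPM in the combined line, 3.92 in pifq, 32.5 in bzr1-1D and 33.1 in Col-0 (means). AT1G05835, annotated as a PHD finger protein, and DAA1, an ATPase-type gene, followed at 0.14 and 0.16. The 3 nearest to HAT1 were AT4G34555, AT2G39390 and AT3G53870, at 0.06 each, and all 3 are annotated as ribosomal protein genes (of the S25, L29 and S3 families). AT3G53870 had 124 CPM in the combined line, 203 in pifq, 129 in bzr1-1D and 161 in Col-0 (means). HAT2 was nearest to CDPK2 (0.04), SNAP33 (0.04) and AT4G33625 (0.04), a kinase, a vesicle fusion and a vacuole protein gene. HAT3 had AT4G23840 (0.03), the class I gene ATHB16 (0.04) and PAS1 (0.04) as nearest genes. ATHB4 had no gene as near by this measure, its closest being AT3G51400 (0.23), the phosphatase gene AT5G66080 (0.25) and MYB10 (0.26). Yet its Pearson correlation with AT3G51400 was 0.98, against 0.96 for HAT3 with AT4G23840. ATHB4 also had low counts (31 and 18 in the combined line), so these distances do not show that fewer genes resemble it. These genes were picked for their likeness out of many, over libraries of only 4 genotypes, so the values describe the profiles and no more.

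Among themselves the 8 genes did not share 1 profile. Over the 8 libraries, which are 4 genotypes in pairs, HAT22 and HAT9 had a Pearson correlation of log2 CPM of 0.92 and ATHB4 and HAT3 of 0.87, while HAT1 and HAT2 had −0.91. ATHB2 correlated with HAT9 at 0.88, with HAT3 at 0.84 and with ATHB4 at 0.82. The root mean square difference between the centred profiles was lowest for HAT22 with HAT9 (0.21) and highest for ATHB2 with HAT1 (1.64).

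Other measures moved with the genotypes as well. In whole seedlings, fewer cells of a type and less RNA per cell cannot be told apart. Vascular markers (ATHB8, XCP1, IRX3, SUC2 and APL) summed to 208 and 224 CPM in the combined line and 207 and 211 in pifq, against 131 and 131 in bzr1-1D and 136 and 141 in Col-0. SUC2 made up most of this sum. It had 152 and 165 CPM in the combined line, 151 and 156 in pifq, 67.6 and 67.7 in bzr1-1D, and 81.8 and 85.2 in Col-0. The phloem genes SUC2 and APL rose in pifq against Col-0 and the xylem genes XCP1 and IRX3 fell. Shoot meristem and boundary markers (STM, KNAT1 and 3 CUC genes) summed to 33.8 and 35.4 CPM in the combined line and 29.8 and 27.9 in pifq, against 58.7 and 57.6 in bzr1-1D and 37.7 and 38.0 in Col-0. Most of that sum was KNAT1, with 28.9 and 29.4 CPM in the combined line, 24.3 and 23.5 in pifq, 49.4 and 49.6 in bzr1-1D, and 29.7 and 30.5 in Col-0. In bzr1-1D against Col-0 KNAT1 rose (log2 fold change 0.72 ± 0.05 SE) and CUC2 fell (−1.57 ± 0.51), while STM and CUC1 were not called. Root markers summed to 51.4 and 47.3 CPM in the combined line, 53.2 and 53.6 in pifq, 77.0 and 80.1 in bzr1-1D, and 81.6 and 80.4 in Col-0, a sum carried by SCR and RHD2. The root hair genes COBL9, PRP3 and EXPA7 were near 0 wherever bzr1-1D was present, but RHD2, also a root hair gene, was not. RHD2 had 3.06 and 2.94 CPM in the combined line, 2.41 and 2.94 in pifq, 10.6 and 10.6 in bzr1-1D, and 7.02 and 6.20 in Col-0. COBL9 had 0 and 0 counts in the combined line, 12 and 14 in pifq, 3 and 0 in bzr1-1D, and 28 and 25 in Col-0. In bzr1-1D against Col-0 3 of the 5 root markers fell and RHD2 rose, and in the combined line against Col-0 all 5 fell. Of all genes, 25% were called lower in the combined line against Col-0. Stomatal lineage markers summed to 18.9 and 19.5 CPM in the combined line and 16.9 and 16.4 in pifq, against 10.35 and 9.998 in bzr1-1D and 5.57 and 6.34 in Col-0. Most of this sum was TMM, with 13.3 and 14.3 CPM in the combined line and 11.0 and 10.6 in pifq. In bzr1-1D against Col-0 TMM (0.89 ± 0.12) and SPCH (0.69 ± 0.22) rose, and MUTE was not called (−0.002 ± 0.39). In the combined line against pifq TMM rose (0.34 ± 0.09), and SPCH (0.004 ± 0.14) and MUTE (−0.67 ± 0.33) were not called. The part of these tissues in the differences of the 8 genes was not tested.

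By gene order in TAIR10.1, some members lie on chromosomes that carry a mutated gene. ATHB4 lies 163 tested genes from PIF4 and HAT9 lies 220 from PIF1, all on chromosome 2, and HAT3 lies 109 from PIF5 on chromosome 3. ATHB2, HAT1 and HAT22 lie on chromosome 4, and HAT2 and HAT14 on chromosome 5, none of which carries one of the 5 mutated genes. Of the 10 tested genes that flank ATHB4, 5 on each side, 1 was called at 2-fold or more in pifq against Col-0, where 12.7% of all genes were. For ATHB2, HAT1, HAT2, HAT3 and HAT14 the count was also 1 of 10, for HAT9 0 and for HAT22 3. For HAT22, 4 of 10 neighbours were called at 2-fold or more in bzr1-1D against Col-0, where 11.4% of all genes were. In the combined line it was 5 of 10 against bzr1-1D (16.8% of all genes) and 1 of 10 against pifq (7.62%). These counts were made after the values were seen. No gene annotated in TAIR10.1 overlaps any of the 8 members.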

How the data were processed

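Each library has 1 deposited file of raw counts, the whole number of reads that the authors assigned to each gene, without normalization. Per the submitters' processing notes, TopHat, HTSeq and the build TAIR9 were involved. Tool versions, strandedness and the handling of multiply mapped reads are not stated in the labels. Reads assigned to no gene (2.68% to 4.27%) and ambiguous reads (1.95% to 2.08%) stayed out of totals and tests. TAIR10.1 is another build, so only names, exon lengths, gene order and gene overlaps were taken from it, and no coordinates are printed. Of the 33518 gene codes, 32709 were found in it.

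Genotypes and replicate numbers come from the titles. Testing used edgeR 4.0.16 in R 4.3.3, with filterByExpr, TMM factors (0.942 to 1.04) and 1 quasi-likelihood fit of all 8 libraries, which left 4 residual degrees of freedom. The 6 contrasts were 5 pairs of genotypes and the interaction, in which the bzr1-1D effect in wild-type PIF background is subtracted from that in pifq. Standard errors are the absolute log2 fold change over the square root of F. P-values were adjusted over all genes tested. The fit was tested on simulated data. The libraries of each genotype differed by more than sampling noise (chi-square per degree of freedom 1.70 to 5.34). For a gene at 0 the upper limit was set at 3 counts (95% confidence), which covers counting error only.

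The planned search for promoter motifs was not run, because promoter sequence was not used here. The counts of flanking genes were added after the data were seen. The members and gene lists were chosen with earlier results of these data known. All 8 members are named in each comparison, up to 4 genes of each other list by smallest p, and the 3 nearest profiles of 5 members by the smallest root mean square difference of log2 CPM (prior count 2); other list genes named were chosen after their values were seen. Alternatives were RLE size factors, no low-count filter, DESeq2 1.42.0, a replicate block, only the genotypes compared, thinning to the smallest library (16.1 M), and leaving out each library.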

Additional observations from a re-analysis of the deposited data

Results flagged for a closer look

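The effect of bzr1-1D differed with the presence of the PIFs for 2 of the 8 genes, by the test of the interaction. For HAT1 the effect in pifq minus the effect in the background with PIFs was −0.59 on the log2 scale (edgeR adjusted p = 7.73e-05), from −0.83 without and −0.24 with them, both downward, in 2 libraries per genotype. For HAT22 it was −0.46 (edgeR adjusted p = 4.47e-06), from 0.39 without and 0.85 with the PIFs, both upward. In the 13 alternative settings that were run both differences stayed past the threshold, with ranges of −0.64 to −0.52 for HAT1 and −0.50 to −0.41 for HAT22. The median interaction of all genes tested was −0.06, and the interaction was called for 48.8% of them. In absolute size, 28.6% of all genes exceeded HAT1 and 37.9% exceeded HAT22.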

How the results depend on the processing

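Of 664 member values recomputed under alternatives, 636 kept their direction and their side of the threshold, 13 came to pass, 8 no longer passed and 7 changed sign. All 7 sign changes were in values that had not passed. HAT14 in pifq;bzr1-1D against bzr1-1D became 0.25 without bzr1-1D replicate 2, 0.0080 without pifq;bzr1-1D replicate 2 and 0.074 after thinning, with a range of −0.33 to 0.25 over the libraries left out. The interaction of HAT9 became −0.021 without bzr1-1D replicate 1, −0.0062 without pifq replicate 2 and −0.054 after thinning (range −0.021 to 0.11 over the libraries left out). The interaction of HAT14 became 0.037 without bzr1-1D replicate 2 (range −0.54 to 0.037). The cause was not tested. Leaving out libraries, the interaction was called for 2 to 4 members, 4 without Col-0 replicate 1. All other counts of members and of genes called stayed within 1.5 times. With the replicate block 12078 genes were called in bzr1-1D against Col-0 and 5 members, and the calls of all 8 members in the 6 comparisons were as without it. Same-numbered libraries did not deviate together (correlations of −0.02 to 0.03), so no pairing by number was seen over all genes tested. A pairing that touches only few genes was not tested. Low counts limit ATHB4 in pifq;bzr1-1D (31 and 18), HAT9 and HAT14.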
